A study of Mus musculus with 12 samples.

Results

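The activin and inhibin genes were read in RNA-seq libraries of the adipose stromal vascular fraction of mice, which holds progenitors, vascular cells and leukocytes and from which the floating mature adipocytes have been taken away. The 9 genes, taken by symbol from the 24422 features counted, are the ligand subunit genes Inhbb, Inhba and Inha, the ligand-binding antagonist genes Fst and Fstl3, the type I receptor genes Acvr1b and Acvr1c, and the type II receptor genes Acvr2a and Acvr2b. The set was chosen by the Inhbb counts themselves, which stood higher on a high-fat diet in these same libraries, so the diet values of these 9 genes are given as a description, with no p-value. All 9 genes were among the 16713 that passed the filter on low counts.

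The 12 libraries form 4 groups of 3. All animals carry 1 p21 (Cdkn1a) allele with a knock-in cassette and 1 without. In the p21+/mcherry genotype the cassette is mCherry. These mice ate a standard diet (standard-diet controls, replicates 1, 2 and 3; SD mCherry in the plots) or high-fat food (high-fat controls, replicates 15, 17 and 20; HFD mCherry in the plots). In the high-fat p21+/mcherry-Tert group the p21 promoter drives Tert, the catalytic subunit of telomerase (Tert group, replicates 25, 26 and 27), and in the high-fat p21+/mcherry-TertCi group it drives TertCi, the catalytically inactive form (TertCi group, replicates 30, 31 and 33). The series' design text names the high-fat control as p21+/- without mCherry, and the sample labels were followed here. The cassettes are active wherever the p21 promoter is, not in one cell type. Age, sex, fat depot and time on the diet are not in the labels, nor is whether libraries came from single or pooled mice, so p-values measure the spread between these libraries, which may be technical.

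Activins are secreted dimers of 2 beta subunits. The subunit encoded by Inhbb forms activin B and the one encoded by Inhba forms activin A, whereas the alpha subunit encoded by Inha pairs with a beta subunit to make an inhibin, which opposes activin. An activin binds a type II receptor, which phosphorylates a type I receptor, and this in turn phosphorylates Smad2 and Smad3, while follistatins hold the ligand outside the cell. In adipose tissue activin A is known as a product of progenitors and of inflamed stroma that holds back adipocyte differentiation, and Acvr1c encodes ALK7, a receptor of mature adipocytes.

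The results below turn on the beta subunit genes, so the 250 bases before the start of each are shown, from RefSeq on GRCm38.p6. Inhbb lies at chr1:119415465-119422248 on the minus strand and Inhba at chr13:16011851-16031621 on the plus strand (GENCODE M21 gene models, protein coding). The windows printed are chr1:119422249-119422498 and chr13:16011601-16011850, read in the direction of each gene. Capitals mark a GC box (GGGCGG) or a TATA box (TATAAA) found on either strand.
Inhbb: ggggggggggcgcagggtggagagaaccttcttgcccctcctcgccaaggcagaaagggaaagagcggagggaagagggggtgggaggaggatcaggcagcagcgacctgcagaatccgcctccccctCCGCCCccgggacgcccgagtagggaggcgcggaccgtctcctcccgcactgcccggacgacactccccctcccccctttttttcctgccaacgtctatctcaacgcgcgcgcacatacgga
Inhba: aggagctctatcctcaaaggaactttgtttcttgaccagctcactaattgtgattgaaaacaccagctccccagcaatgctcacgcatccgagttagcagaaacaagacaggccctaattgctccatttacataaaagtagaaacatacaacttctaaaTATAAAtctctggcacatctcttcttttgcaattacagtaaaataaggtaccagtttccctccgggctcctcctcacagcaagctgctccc
The Inhbb window was 68.0% G or C, had 1 GC box beginning 122 bases before the start, and held no TATAAA. The Inhba window was 43.2% G or C, had no GC box, and held 1 TATAAA beginning 91 bases before the start. Of 32851 windows of that length in the RefSeq table, which had a median of 52.4% G or C, 32.7% held a GC box and 12.4% a TATAAA. The Smad-binding letters CAGAC, present in 42.2% of windows, and the palindrome GTCTAGAC, present in 0.167%, were in neither window on either strand. A window was found for 8 of the 9 genes, and CAGAC was in those of Inha, Fstl3, Acvr2a and Acvr2b.

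The libraries held 16430330 to 19486965 counts. Levels are given as CPM, the count scaled to the TMM-adjusted library size, and the 9 genes and the pathway genes are compared with each other only as CPM per kilobase of exon. Cell type markers are named and summed in CPM, which is not scaled by length. Crisp1, a secretory gene of the epididymis, separated the libraries within every group. Crisp1 was above 500 CPM in 8 libraries, 2 in each group, and under 1 CPM in 4 libraries, 1 in each group (standard-diet control 2, high-fat control 20, Tert 27 and TertCi 31). Results are therefore also given within these sets. Within the 8 libraries Crisp1 ran from 641 to 14780 CPM, so they are not matched in epididymal content. The epididymal and vas deferens markers summed to 2462 CPM in standard-diet control 2. Crisp1 was at 0.242 CPM and Akr1b7, also on that list, at 0.339 CPM there, so other genes made up nearly all of the sum. The list also holds the epithelial genes Epcam, Cdh1, Krt18 and Cldn7, so its sum is not a measure of epididymal content alone. In high-fat control 17 the sum was 2035 CPM, with Crisp1 at 641 CPM and Akr1b7 at 1347 CPM. Of the adipocyte markers, Adipoq was at 7.85 CPM or less and Plin1 at 5.32 CPM or less in each library, but Pnpla2 ran from 91.1 to 147 CPM and Fasn from 23.0 to 540 CPM. The endothelial gene Pecam1 was at 176 CPM or more and the progenitor gene Pdgfra at 56.7 CPM or more in each. Because the tissue was measured in bulk, fewer cells of a type and less RNA per cell cannot be told apart.

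Inhbb was the most abundant member per kilobase in the 3 high-fat groups. Its level was 10.8 ± 0.573 CPM per kilobase in the standard-diet controls, 66.9 ± 11.2 in the high-fat controls, 31.5 ± 16.9 in Tert and 28.5 ± 4.84 in TertCi (SD, n = 3 each). On the standard diet its mean stood below those of Fst (14.5 ± 8.34) and Fstl3 (13.9 ± 4.21) and above that of Acvr1b (8.43 ± 3.67), and these 4 neighbours differed by less than the spread of Fst, Fstl3 or Acvr1b. In the high-fat controls the order after Inhbb was Fst (14.4 ± 6.69), Acvr1b (13.5 ± 3.62), Inhba (10.9 ± 7.13), Fstl3 (8.09 ± 0.485), Acvr2a (7.75 ± 0.353) and Inha (3.43 ± 4.10 CPM per kilobase), where the steps from Fst to Acvr2a were each smaller than the spread of at least 1 of the neighbours. Acvr2b and Acvr1c were lowest in every group, at or below 0.434 and 0.108 CPM per kilobase on average.

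**Figure D1:**
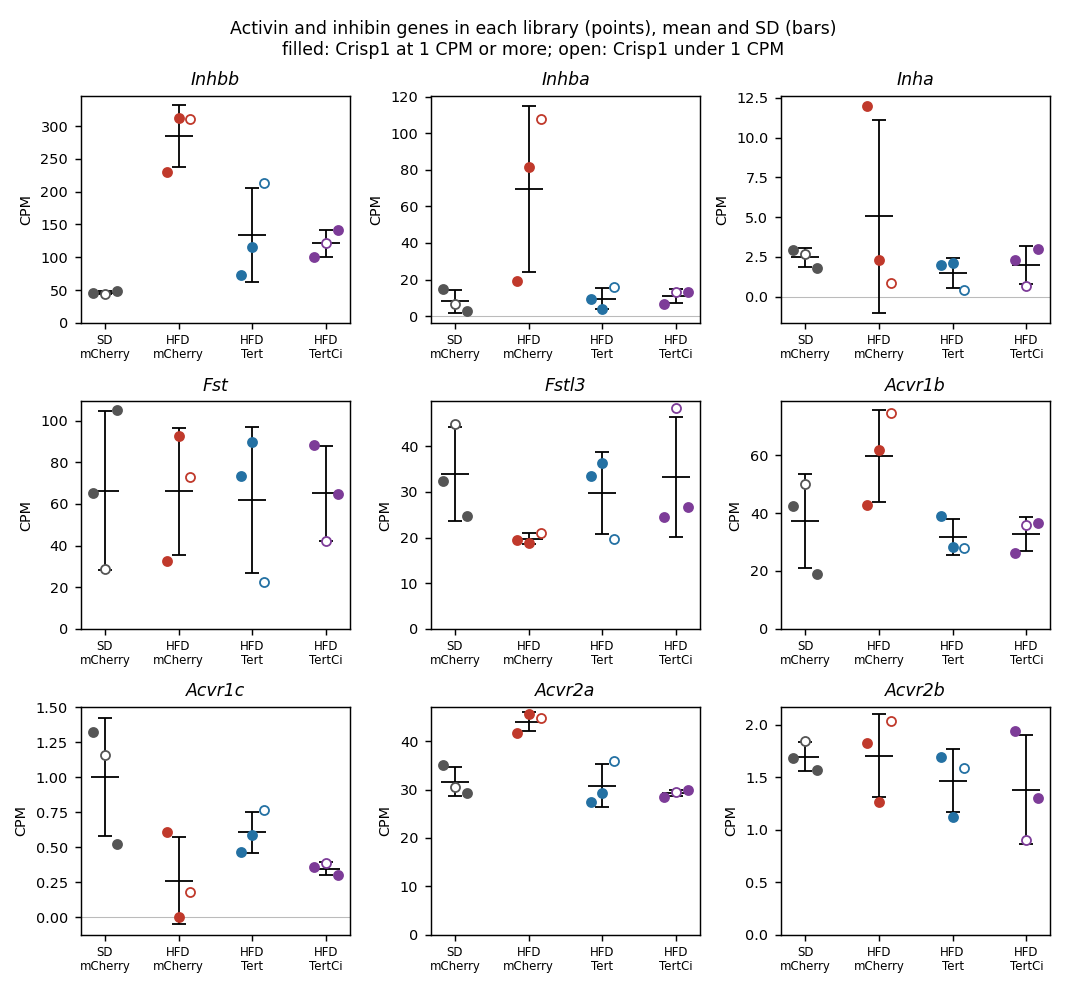
Level of the 9 genes in each library (vertical axis, CPM, drawn down to 0 or to the lowest error bar) by group (horizontal axis). Points are libraries, filled where Crisp1 was at 1 CPM or more and open where it was lower, and bars are mean and SD (n = 3). Inhbb is at 43.5 to 48.4 CPM in the standard-diet controls and at 73.4 CPM or more in every high-fat library.

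Inhbb encodes the beta B subunit. It stood at 45.9, 43.5 and 48.4 CPM in standard-diet control replicates 1, 2 and 3, at 230, 313 and 311 CPM in high-fat control replicates 15, 17 and 20, at 73.4, 115 and 213 CPM in Tert replicates 25, 26 and 27, and at 101, 121 and 142 CPM in TertCi replicates 30, 31 and 33. All 9 high-fat libraries lay above all 3 standard-diet libraries, and all 6 Tert and TertCi libraries lay below all 3 high-fat control libraries, the nearest being Tert 27. The diet difference that singled out the gene was a log2 fold change of 2.63 ± 0.350 (SE). Against the high-fat controls the log2 fold change was -1.09 ± 0.333 (SE) in Tert (edgeR adjusted p = 0.208) and -1.23 ± 0.334 in TertCi (edgeR adjusted p = 0.197), lower in 3 of 3 libraries of each group, and neither passed the threshold of 0.05. DESeq2 gave adjusted p-values of 0.0630 and 0.0341, and with a score of the epididymal markers as a covariate edgeR gave adjusted p = 0.0252 and 0.0328. Both comparisons use the high-fat control libraries in which the gene was picked as high, so a lower value in the other groups is not independent of that choice.

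Between Tert and TertCi, which share no library with the diet comparison, Inhbb differed by 0.14 ± 0.330 (log2, SE; 95% interval -0.59 to 0.87; edgeR adjusted p = 1), and the libraries of both groups overlapped. Without Tert 27 that difference had the opposite sign, at -0.36. The spread of Inhbb within Tert was wide (134 ± 71.9 CPM, SD, n = 3) compared with TertCi (121 ± 20.6). In the 4 libraries with Crisp1 under 1 CPM, Inhbb stood at 43.5 CPM in the standard-diet controls, 311 in the high-fat controls, 213 in Tert and 121 in TertCi. In a fit to the 8 libraries with Crisp1 above 500 CPM, made after the split was seen, its log2 fold change was 2.52 for the diet, -1.52 for Tert and -1.16 for TertCi, so each difference was of the same sign there.

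Inhba, which encodes the beta A subunit, stood at 14.6, 6.64 and 2.72 CPM in the standard-diet controls, at 19.1, 81.4 and 108 CPM in high-fat control replicates 15, 17 and 20, at 9.16, 3.79 and 15.6 CPM in Tert, and at 6.68, 12.9 and 13.2 CPM in TertCi. The 3 high-fat control libraries were the 3 highest, but replicate 15 lay close to the top of the other groups while replicates 17 and 20 lay far above them. The diet difference was a log2 fold change of 3.12 ± 0.782 (SE), 3.89 without standard-diet control 1. Against the high-fat controls the log2 fold change was -2.87 ± 0.773 in Tert (SE, edgeR adjusted p = 0.195) and -2.66 ± 0.766 in TertCi (SE, edgeR adjusted p = 0.204), lower in 3 of 3 libraries of each. DESeq2 gave adjusted p-values of 0.00641 and 0.0139 for them, and the epididymal score as a covariate gave edgeR adjusted p = 0.0224 and 0.0575.

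Inhba in Tert and TertCi differed by -0.20 ± 0.727 (log2, SE; 95% interval -1.81 to 1.40; edgeR adjusted p = 1). Its level in those groups overlapped that of the standard diet, at 9.53 ± 5.93 and 10.95 ± 3.70 CPM beside 7.99 ± 6.06 CPM (SD, n = 3 each), values set side by side without a test. In the 4 libraries with Crisp1 under 1 CPM, Inhba stood at 6.64, 108, 15.6 and 12.9 CPM in the same order of groups. In the 8 others its log2 fold change was 2.51 for the diet, -2.94 for Tert and -2.33 for TertCi.

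Inha (chr1:75507077-75510366, plus strand), which encodes the inhibin alpha subunit, was scarce. Its counts were 58, 55 and 31 on the standard diet, 217, 38 and 15 among the high-fat controls, 34, 40 and 7 for Tert, and 45, 11 and 60 for TertCi. One library, high-fat control 15, stood at 11.99 CPM, and the other 11 at 3.01 CPM or less. With that library the diet log2 fold change was 1.03 ± 0.913 (SE), and without it -0.63, so its direction rested on 1 library. The log2 fold changes against the high-fat controls were -1.74 ± 0.934 in Tert and -1.33 ± 0.921 in TertCi (SE, edgeR adjusted p = 0.371 and 0.518), and without high-fat control 15 they were -0.0728 and 0.34.

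The same library, high-fat control 15, differed in makeup from replicates 17 and 20. Its epididymal and vas deferens markers summed to 22222 CPM, against 2035 and 145 CPM, and its macrophage markers to 1945 CPM, against 4832 and 3996 CPM. Whether that makeup bears on its higher Inha or lower Inhba was not tested. The 9 markers of inhibin-producing cells of testis and ovary, led in CPM by Sox9 and Insl3, summed to 198 CPM in that library, against 42.8 and 64.4 CPM in replicates 17 and 20. They summed to 57.3 to 626 CPM in the standard-diet controls, 41.1 to 69.2 CPM in Tert and 34.1 to 64.8 CPM in TertCi. The highest sum, 626 CPM, was in standard-diet control 2, where Inha stood at 2.67 CPM. Sox9 alone stood at 608 CPM in that library, so its sum is mostly Sox9 and says little about the other genes of the list. Every gene of the list but Sox9 and Insl3 had a mean of 6.02 CPM or less over the 12 libraries. On this list Sox9 ran from 10.3 to 608 CPM and Insl3, a Leydig cell gene, from 3.24 to 23.6 CPM over the 12 libraries, while Dmrt1, a Sertoli cell gene, was at 0 in each. The part of such cells in the Inha values was not tested.

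Fst (chr13:114452290-114458951, minus strand) and Fstl3 (chr10:79777272-79782630, plus strand) encode secreted proteins that bind activins and keep them from their receptors. Fst stood at 65.3, 28.7 and 105 CPM in the standard-diet controls, at 32.5, 92.8 and 72.7 CPM in the high-fat controls, at 73.5, 89.8 and 22.3 CPM in Tert, and at 88.2, 42.3 and 64.6 CPM in TertCi. The 4 groups overlapped throughout, with means of 61.9 to 66.4 CPM and SDs of 23.0 to 38.3 CPM. The diet log2 fold change was -0.0071 ± 0.588 (SE). The differences from the high-fat controls were -0.0939 ± 0.588 in Tert and -0.0221 ± 0.588 in TertCi (log2, SE, edgeR adjusted p = 0.954 and 0.992), and their sign depended on the scaling and on the library left out. Fst was lowest of its group in standard-diet control 2, Tert 27 and TertCi 31, 3 of the 4 libraries with Crisp1 under 1 CPM, but not in high-fat control 20.

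Fstl3 stood at 32.4, 45.0 and 24.6 CPM in the standard-diet controls, at 19.5, 18.8 and 21.1 CPM in the high-fat controls, at 33.6, 36.3 and 19.6 CPM in Tert, and at 24.6, 48.4 and 26.7 CPM in TertCi. The high-fat control libraries were close together and lay below all standard-diet control and all TertCi libraries, while Tert 27 lay among them. The log2 fold change was -0.78 ± 0.331 (SE) for the diet, 0.59 ± 0.331 in Tert (edgeR adjusted p = 0.388) and 0.75 ± 0.331 in TertCi (edgeR adjusted p = 0.333) against the high-fat controls. Fstl3 shares 1157 of its 2445 exonic bases with Prss57 on the opposite strand, and with no stated use of strand the reads there cannot be told apart. The same holds for 115 exonic bases of Fst shared with Gm47040 and 168 of Acvr1c shared with Gm13544.

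Acvr1b (chr15:101174067-101213684, plus strand) encodes ALK4, the main type I receptor of activins. It stood at 42.6, 50.1 and 19.1 CPM in the standard-diet controls, at 42.9, 62.0 and 74.7 CPM in the high-fat controls, at 38.9, 28.4 and 28.1 CPM in Tert, and at 26.1, 36.0 and 36.4 CPM in TertCi. The high-fat controls and the standard-diet controls overlapped, and all 6 Tert and TertCi libraries lay below the 3 high-fat control libraries. The diet log2 fold change was 0.68 ± 0.344 (SE), 0.37 without standard-diet control 3. Against the high-fat controls it was -0.91 ± 0.345 in Tert (SE, edgeR adjusted p = 0.247) and -0.87 ± 0.345 in TertCi (SE, edgeR adjusted p = 0.288).

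Acvr2a (chr2:48814109-48903269, plus strand) encodes the type II receptor ActRIIA. It stood at 35.0, 30.5 and 29.3 CPM in the standard-diet controls, at 41.8, 45.6 and 44.8 CPM in the high-fat controls, at 27.4, 29.3 and 35.9 CPM in Tert, and at 28.5, 29.6 and 29.9 CPM in TertCi. The high-fat controls lay above every other library. The log2 fold change was 0.48 ± 0.163 (SE) for the diet, and against the high-fat controls -0.52 ± 0.163 in Tert (edgeR adjusted p = 0.217) and -0.59 ± 0.163 in TertCi (edgeR adjusted p = 0.203; DESeq2 adjusted p = 0.0315). With library size alone as the scaling, the diet value was 0.26. Acvr2a shares 446 of its 5686 exonic bases with Orc4 on the opposite strand.

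The other receptor of each type was scarce. Acvr2b (chr9:119402118-119434995, plus strand), which encodes ActRIIB, had 14 to 38 counts in each library, and its group means ran from 1.38 ± 0.523 CPM in TertCi to 1.71 ± 0.397 CPM in the high-fat controls (SD, n = 3), with all groups overlapping. Its log2 fold change against the high-fat controls was -0.22 ± 0.447 in Tert and -0.30 ± 0.447 in TertCi (SE, edgeR adjusted p = 0.837 and 0.784). Acvr1c (chr2:58267453-58357895, minus strand) was close to the limit of the depth. Acvr1c counts were 26, 24 and 9 on the standard diet, 11, 0 and 3 among the high-fat controls, 8, 11 and 13 for Tert, and 7, 6 and 6 for TertCi. The library at 0, high-fat control 17, allows up to 0.180 CPM (3 counts, for counting error only). The diet log2 fold change of Acvr1c was -1.90 ± 0.954 (SE), -3.39 without high-fat control 15 and -1.33 without high-fat control 17. Against the high-fat controls it was 1.17 ± 0.952 in Tert and 0.38 ± 0.961 in TertCi (SE, edgeR adjusted p = 0.551 and 0.878). Without high-fat control 15 these values were 2.66 and 1.87, and without high-fat control 17 they were 0.61 and -0.18. Tert lay above TertCi in all libraries, a log2 difference of 0.79 ± 0.936 (SE, 95% interval -1.28 to 2.86, edgeR adjusted p = 1).

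**Figure D2:**
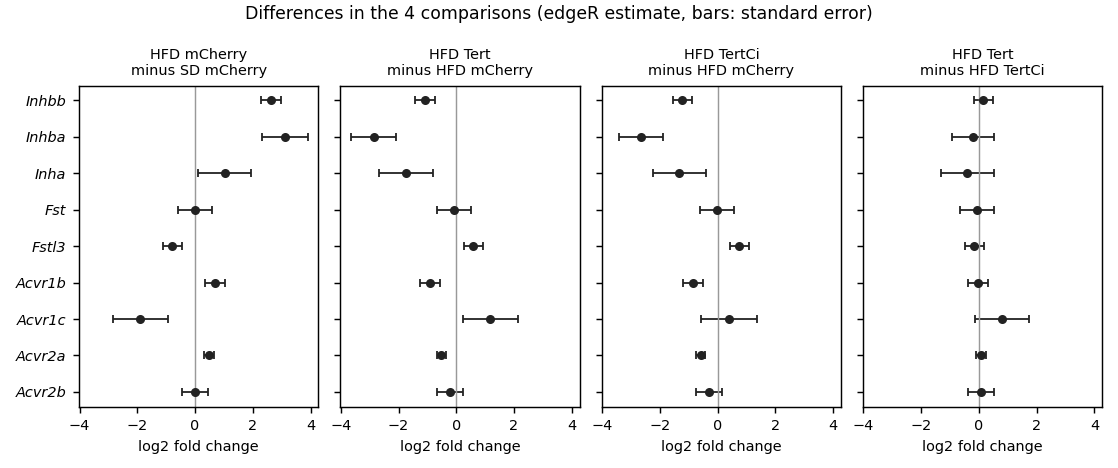
Log2 fold change of each gene (horizontal axis) in the 4 comparisons, with the standard error of the edgeR fit as bars. The high-fat controls enter the first 3 panels, so these are not independent of each other, and in the panel of Tert minus TertCi no value exceeds 0.79 in size.

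Counted over the 9 genes, the diet comparison called 1 gene, Inhbb, the gene that led to the choice, where 0.0479% of all genes tested were called (0.0419% higher and 0.00598% lower). This count was 0 in 8 of the 12 fits that left out 1 library. The choice of Inhbb by its rise on the diet favoured that call, which is given as a description only. In that comparison 3 genes (Inhbb, Inhba and Acvr2a) lay wholly above the standard diet, where 13.9% of all genes did, and Fstl3 lay wholly below, where 11.6% did (25.5% in either direction). An unadjusted p under 0.05 was found for 24.1% of all genes. For Tert against the high-fat controls edgeR called 0 of the 9 genes (0% of all genes were called), 4 had an unadjusted p under 0.05, as 16.4% of all genes had. DESeq2 called 1 (4.66% of all genes with a DESeq2 adjusted p were called) and limma-voom 0 (0% of all genes). Inhbb, Inhba, Acvr1b and Acvr2a lay wholly below the high-fat controls, as did 11.1% of all genes, and 0 lay wholly above, where 9.99% did (21.1% in either direction). For TertCi against the high-fat controls edgeR called 0 of the 9 (0.012% of all genes were called), 5 had an unadjusted p under 0.05, as 14.7% of all genes had. DESeq2 called 3 (3.71% of all genes) and limma-voom 0 (0.012% of all genes). Inhbb, Inhba, Acvr1b and Acvr2a lay wholly below and Fstl3 wholly above the high-fat controls, as did 12% and 9.45% of all genes (21.5% in either direction).

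These 3 comparisons share the high-fat control libraries. The median log2 fold change of the 9 genes was 0.48 for the diet, -0.52 for Tert and -0.59 for TertCi, beside -0.0753, -0.0534 and -0.0389 over all genes tested. Between Tert and TertCi 0 of the 9 genes were called by edgeR (0% of all genes), by DESeq2 (0.0341%) or by limma-voom (0%), and 0 had an unadjusted p under 0.05, as 1.36% of all genes had. Acvr1c was the gene that did not overlap there, where 2.55% of all genes lay higher and 2.58% lower (5.13% in either direction). The 95% intervals of the difference were narrowest for Acvr2a (-0.29 to 0.43) and widest for Acvr1c, so they leave room for log2 differences of over 1 in Inhba, Inha, Fst, Acvr1c and Acvr2b. They ran from -0.88 to 0.57 for Fstl3 and from -0.80 to 0.71 for Acvr1b.

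The balance of Inhbb with other members was followed as a ratio within each library, the log2 of (CPM + 0.5) of both genes, which depends little on library scaling. Inhbb to Fst was -0.34 ± 0.864 in the standard-diet controls, 2.21 ± 0.537 in the high-fat controls, 1.20 ± 1.77 in Tert and 0.94 ± 0.676 in TertCi (SD, n = 3 each). The high-fat controls lay wholly above the standard-diet controls and TertCi, while Tert spanned from -0.0011 and 0.36 in replicates 25 and 26 to 3.23 in replicate 27. Without replicate 27 the Tert mean was 0.18.

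Inhbb to Fstl3 was 0.47 ± 0.505 in the standard-diet controls, 3.80 ± 0.254 in the high-fat controls, 2.06 ± 1.20 in Tert and 1.91 ± 0.546 in TertCi (log2, SD, n = 3 each). All 9 high-fat libraries lay above the standard-diet control libraries, and the high-fat controls lay above all 6 Tert and TertCi libraries, of which Tert 27 was nearest at 3.41. Inhbb to Inhba overlapped between all 4 groups, at 2.72 ± 1.15, 2.34 ± 1.07, 3.81 ± 0.912 and 3.46 ± 0.329 in the same order. It was lowest in high-fat control 20 (1.52) and standard-diet control 1 (1.62), so the ratio was above 0 in all 12 libraries. Inhba has the longer exons (6390 against 4255 bases), so Inhbb also stood above Inhba per kilobase in each. The Inhbb ratios for the diet restate the difference that singled out the gene and were not tested.

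**Figure D3:**
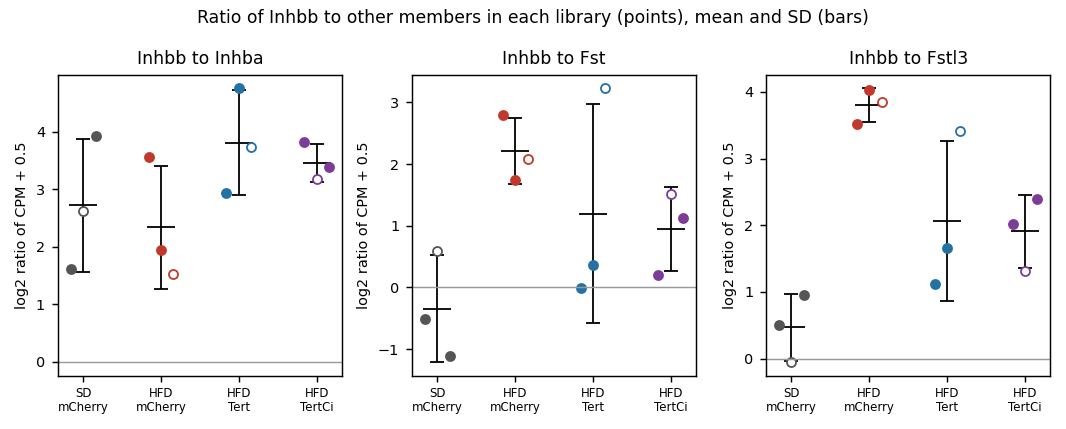
Log2 ratio of Inhbb to Inhba, Fst and Fstl3 (vertical axis, CPM + 0.5) in each library by group. Points are libraries, filled where Crisp1 was at 1 CPM or more and open where it was lower, and bars are mean and SD (n = 3). The ratio to Fstl3 is 3.52 or more in each high-fat control library and 0.96 or less in each standard-diet control library.

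The other genes of the pathway were taken from 6 lists with 53 genes, of which 45 were tested. Inhbc and Mstn had 0 counts in every library, and Inhbe, Nodal, Foxh1, Lefty2 and Cer1 had at most 11 counts in any. For the diet 0 of the 45 genes were called by edgeR, 17 had an unadjusted p under 0.05, beside 24.1% of all genes, and DESeq2 called 9, beside 12.7% of all genes. For Tert and for TertCi against the high-fat controls edgeR called 0 genes each, 9 and 12 genes had an unadjusted p below that level, beside 16.4% and 14.7% of all genes, and DESeq2 called 5 and 3, beside 4.66% and 3.71%. For Tert against TertCi edgeR and DESeq2 called 0, and 0 had an unadjusted p under 0.05. The median log2 fold change of the 45 was 0.18, 0.0389, -0.14 and 0.11 in the 4 comparisons, beside -0.0753, -0.0534, -0.0389 and -0.0112 over all genes tested.

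Among the other ligands of activin receptors the most abundant per kilobase were Bmp4 and Bmp6, bone morphogenetic proteins. Bmp4 stood at 31.4 ± 3.18, 18.6 ± 1.70, 47.9 ± 5.38 and 51.8 ± 33.8 CPM in the standard-diet controls, the high-fat controls, Tert and TertCi (SD, n = 3 each). Its high-fat control libraries lay below all others, opposite to Inhbb, and the log2 fold change against the high-fat controls was 1.37 ± 0.363 in Tert and 1.48 ± 0.364 in TertCi (SE, edgeR adjusted p = 0.189 and 0.186). Bmp6 stood at 36.2 ± 14.7, 43.4 ± 13.8, 47.1 ± 7.66 and 53.1 ± 25.7 CPM, with all groups overlapping.

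Of the 10 other receptors and co-receptors, Eng (endoglin, an endothelial co-receptor) and Tgfbr3 (betaglycan, which lets inhibin compete with activin for type II receptors) were most abundant. Tgfbr3 stood at 145 ± 41.3, 257 ± 126, 207 ± 47.8 and 171 ± 54.3 CPM and Eng at 148 ± 25.6, 288 ± 111, 350 ± 87.7 and 383 ± 169 CPM (SD, n = 3 each). The median of this list was 0.77 for the diet, 0.0028 for Tert and -0.23 for TertCi, with 0 genes called.

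Inside the cell, Ski and Skil, repressors of Smad-driven transcription, were the most abundant of 11 tested Smads and regulators. Skil, itself a target of Smad2 and Smad3, stood at 316 ± 118, 315 ± 53.1, 298 ± 61.6 and 312 ± 122 CPM, with group means closer together than the libraries of a group. Ski stood at 199 ± 82.6, 226 ± 29.3, 182 ± 18.2 and 160 ± 30.5 CPM. The median of the list was 0.16 for the diet, -0.0787 for Tert and -0.0839 for TertCi.

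Fstl1, a secreted follistatin-like protein, and Bambi, a pseudoreceptor without kinase activity, led the list of other inhibitors. Fstl1 stood at 364 ± 175, 1829 ± 994, 835 ± 452 and 609 ± 217 CPM, with log2 fold changes of 2.33 ± 0.588 for the diet, -1.13 ± 0.567 for Tert and -1.59 ± 0.573 for TertCi (SE, edgeR adjusted p = 0.343 and 0.261 for the last 2). Bambi stood at 35.8 ± 9.33, 22.7 ± 6.79, 38.3 ± 5.69 and 34.6 ± 6.54 CPM, lower in mean in the high-fat controls than elsewhere. Furin, the convertase that cleaves activin precursors, stood at 124 ± 42.0, 292 ± 100.5, 159 ± 38.0 and 157 ± 25.7 CPM, and its high-fat control libraries lay wholly above the standard-diet controls. Pcsk6, another convertase, stood at 33.2 ± 23.7, 70.6 ± 37.8, 72.8 ± 26.97 and 58.8 ± 29.0 CPM.

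Target genes of Smad2 and Smad3 formed the last list, with 7 genes tested. Id1, known mainly as a target of BMP signalling, stood at 182 ± 121, 44.8 ± 10.5, 239 ± 130 and 148 ± 77.3 CPM. Its high-fat control libraries lay below all others, and its log2 fold change was 2.41 ± 0.608 in Tert and 1.73 ± 0.594 in TertCi (SE, edgeR adjusted p = 0.187 and 0.248). The median of the list was 0.32 for the diet, -0.13 for Tert and -0.21 for TertCi. Of the 7 genes, 5, 3 and 2 were above 0 in these comparisons. Id1 ran opposite to the list median in each of them, so it does not stand for the list.

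The genes whose levels ran most like Inhbb were found by Pearson correlation of log2(CPM + 0.5) over the 12 libraries among the 12369 genes whose mean reached 5 CPM. They were Postn (periostin, a matrix protein; r = 0.974), Col4a1 (r = 0.972) and Col4a2 (r = 0.963), the chains of basement membrane collagen IV, Sparc (osteonectin, a matrix protein; r = 0.962) and St8sia4 (a polysialyltransferase; r = 0.952), with Spearman coefficients of 0.923 to 0.965. These are descriptions over libraries that share the group structure, and no p is given. Postn stood at 102 ± 12.2, 1106 ± 438, 483 ± 409 and 325 ± 112 CPM in the standard-diet controls, the high-fat controls, Tert and TertCi, and Col4a1 at 318 ± 29.1, 2390 ± 1125, 1040 ± 565 and 841 ± 204 CPM (SD, n = 3 each). In Tert all 5 genes were highest in replicate 27, and in the high-fat controls they were lowest in replicate 15, as Inhbb was. They were picked for their likeness to Inhbb over these same 12 libraries, so this agreement follows from the choice.

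**Figure D4:**
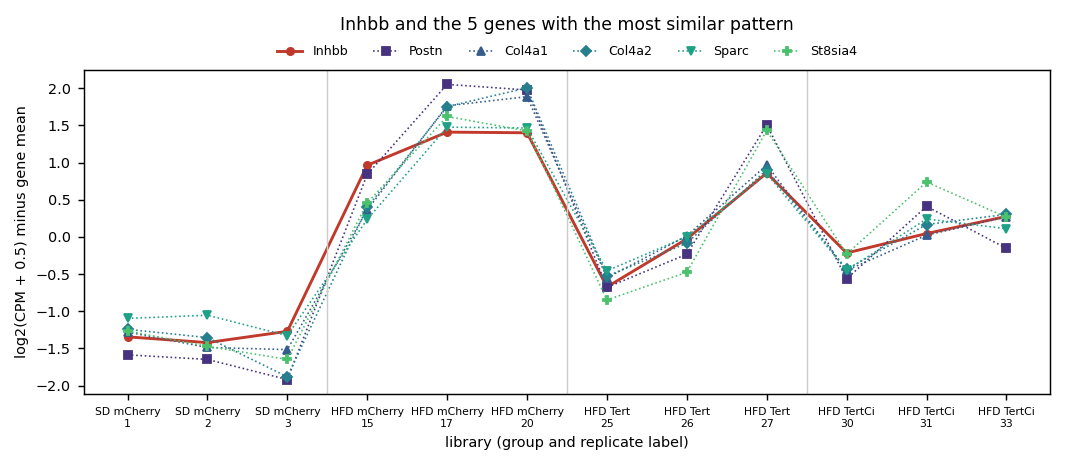
Level of Inhbb (solid line) and the 5 genes most like it (dotted) as log2(CPM + 0.5) minus the gene's mean over the 12 libraries (vertical axis) in each library (horizontal axis, grouped). The lines join libraries only to guide the eye. In Tert the highest point of each gene is replicate 27. The 5 genes were picked for their likeness to Inhbb over these libraries, so the agreement of the lines follows from the choice.

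Marker lists of cell types were read beside the ligand genes. The 10 macrophage markers, led in CPM by Cd14 and Lyz2, summed to 961 to 1031 CPM in the standard-diet controls, 1945 to 4832 CPM in the high-fat controls, 803 to 2002 CPM in Tert and 978 to 1404 CPM in TertCi, and none of them was at 0 in a group. In the high-fat controls they were highest in replicates 17 and 20, where Inhba was highest, and in Tert they were highest in replicate 27, where Inhbb was highest. The sums of lipid-associated macrophage, progenitor, endothelial and mast cell markers were also highest in these libraries of the high-fat controls and of Tert. In TertCi the macrophage sum was highest in replicate 31 (1404 CPM), whereas Inhbb and Inhba were highest in replicate 33. The 10 lipid-associated macrophage markers, led in CPM by Lpl and Lgals3, ran in the same order of groups from 477 to 891, 1887 to 7396, 643 to 2665 and 623 to 1948 CPM.

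The 12 adipose progenitor markers, led in CPM by Icam1 and Cd34, summed to 1971 to 3208 CPM in the standard-diet controls, 2890 to 7003 CPM in the high-fat controls, 3617 to 6220 CPM in Tert and 2963 to 6835 CPM in TertCi. Of these, Pdgfra fell by 1.84 on the log2 scale in TertCi against the high-fat controls (edgeR adjusted p = 0.0426). That comparison called 0 genes when any single library other than standard-diet control 3 or high-fat control 15 was left out. The 14 adipocyte markers, led in CPM by Fasn and Pnpla2, summed to 495 to 876 CPM on the standard diet, against 306 to 452, 272 to 504 and 266 to 435 CPM in the other groups. Of these, Cfd (adipsin) fell by 5.18 on the log2 scale with the diet (edgeR adjusted p = 0.0219). The diet comparison called 0 genes without standard-diet control 1 or 2, high-fat control 17 or 20, or TertCi 33. The 8 endothelial markers, led in CPM by Pecam1 and Cdh5, summed to 751 to 979, 1045 to 2032, 1768 to 3385 and 1432 to 3752 CPM, and unlike Inhbb their highest sums were in Tert 27 and TertCi 31.

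The 8 mast cell markers, led in CPM by Hdc and Kit, summed to 38.4 to 185 CPM in the standard-diet controls, 98.7 to 321 CPM in the high-fat controls, 76.2 to 138 CPM in Tert and 99.1 to 112 CPM in TertCi. The median log2 fold change of the 7 tested was 2.20 for the diet, -2.05 for Tert and -2.07 for TertCi, with 0 of 7 above 0 in both knock-in comparisons and 0 called by edgeR. The mesothelial markers, led in CPM by Krt8 and Krt19, summed to 896 to 3147, 323 to 894, 680 to 1969 and 890 to 1155 CPM in the same order of groups, with medians of -1.27, 1.84 and 1.44. The 8 pericyte and smooth muscle markers, led in CPM by Tagln and Myh11, summed to 2713 to 18793, 1545 to 2818, 2705 to 19057 and 3883 to 12079 CPM, with medians of -1.73, 2.08 and 1.67. The mesothelial and the pericyte and smooth muscle medians had the sign opposite to Inhbb in the 3 comparisons. The adipocyte medians and those of the testis and ovary list did so too. The mast cell, macrophage, lipid-associated macrophage and progenitor medians had the same sign as Inhbb in all 3, and the endothelial and epididymal medians were mixed. The epididymis and vas deferens list, led in CPM by Akr1b7 and Crisp1, summed to 2462 to 57881, 145 to 22222, 28.0 to 21457 and 268 to 33853 CPM. The part of these cell types in the Inhbb and Inhba values was not tested.

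**Figure D5:**
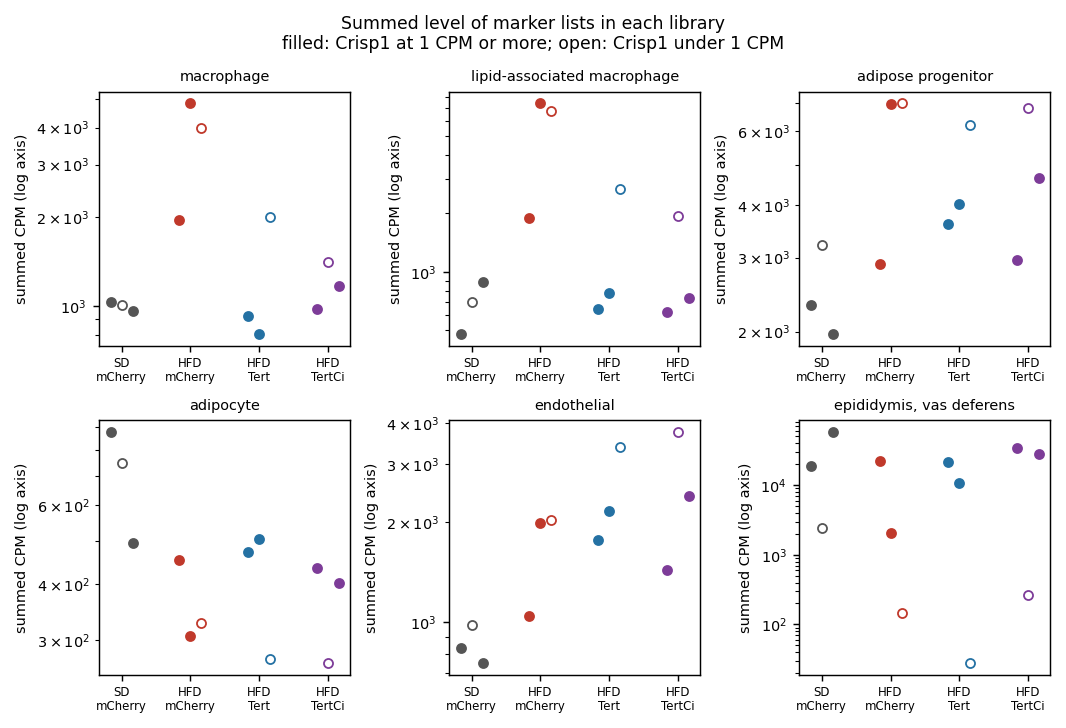
Summed CPM (vertical axis, log scale) of 6 marker lists in each library by group, filled where Crisp1 was at 1 CPM or more and open where it was lower. The macrophage sum is 1945 CPM or more in each high-fat control library and 1031 CPM or less in each standard-diet control library. In Tert the macrophage, lipid-associated macrophage, progenitor and endothelial sums are all highest in replicate 27.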

How the data were processed

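Raw read counts per gene symbol were deposited by the authors, 1 table per library with 24422 features and 0 lines without a gene name. The submitters' processing notes name Subread, SAMtools, featureCounts 1.6.4 and the build mm10; annotation, use of strand and handling of multiply mapped reads are not given in the sources used here. Per the labels' protocols, mRNA was captured on poly-T beads and cDNA primed by random hexamers.

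The counts were used as deposited in edgeR 4.0.16 (R 4.3.3): filterByExpr with the 4 groups (16713 genes kept), TMM factors (0.854 to 1.15), and 1 robust quasi-likelihood fit over the 12 libraries with no covariate. Tests were 2-sided with Benjamini-Hochberg adjustment over all genes tested, called at an adjusted p under 0.05. The SE is the log2 fold change divided by the root of the F statistic. Exon lengths and overlaps came from GENCODE M21 (GRCm38, the assembly of mm10) and promoter windows from RefSeq. DESeq2 1.42.0 and limma-voom (limma 3.58.1) were alternatives, and scripts were tested on simulated counts.

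The members, lists and tests were chosen with earlier results of these data known. Named were all 9 members, in each pathway list the 2 genes with the highest mean CPM per kilobase and any called gene (none was), and the 5 genes most like Inhbb. Of each cell type list the 2 genes of highest mean CPM were named; Adipoq, Plin1, Pdgfra, Cfd and Dmrt1 were named after their values were seen. One gene that this rule names is not reported here.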

Additional observations from a re-analysis of the deposited data

How the results depend on the processing

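No paired analysis was possible because replicate numbers differ in every group. Fits with a term for the Crisp1 class and on the 8 libraries with Crisp1 above 500 CPM were chosen after seeing the data. Diet, Tert and TertCi stand for the high-fat against the standard-diet controls and for each knock-in against the high-fat controls.

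Calls depended on the tool. Calls of members for the diet are given as a description, because Inhbb was chosen by its values in that comparison. DESeq2 called 1994, 789, 599 and 7 genes for the diet, for Tert, for TertCi and between both knock-ins, of which 2, 1 and 3 were members in the first 3. With the epithelial score as a covariate 1665, 1147 and 719 genes and 2, 2 and 1 members were called in the first 3: Inhbb and Inhba for Tert (edgeR adjusted p = 0.0252 and 0.0224) and Inhbb for TertCi (0.0328). Both knock-in comparisons use the high-fat control libraries in which Inhbb was picked as high, so its calls there are not independent of that choice. With the Crisp1 class as a term the diet called 1508 genes and 2 members. The diet called 2 genes and 0 members with RLE size factors, and 0 genes and 0 members with limma-voom, with only the compared groups and with the 8 libraries. With library size only, TertCi called 1 gene and the diet value of Acvr2a was 0.26. TertCi called 0 genes with only the compared groups and with the 8 libraries. Leaving out 1 library gave 0 to 2082 genes and 0 to 2 members for the diet, 0 to 51 and 0 to 198 genes for Tert and TertCi, with 0 members there. The highest counts came without high-fat control 15. For the diet 1 member was called without standard-diet control 3, Tert 25 or Tert 27, 2 without high-fat control 15, and 0 without any other single library. The cause was not tested.

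Signs reversed only in values that were not called. Fst was 0.0656 for Tert and 0.16 for TertCi with library size only, and for TertCi 0.0498 with limma-voom and 0.0689 with only the compared groups. In the 8 libraries it was 0.39 and 0.29, and Acvr2b for TertCi 0.0657. For Tert against TertCi the 8 libraries gave -0.36 for Inhbb, 0.0994 for Fst, 0.45 for Fstl3, 0.11 for Acvr1b, -0.0407 for Acvr2a and -0.20 for Acvr2b, and the epithelial score gave -0.0333 for Inhbb. Leaving out 1 library, Fst ran from -0.45 to 0.31 for Tert and from -0.35 to 0.30 for TertCi, Inha for TertCi from -1.82 to 0.34 and Acvr1c from -0.18 to 1.87. For Tert against TertCi the ranges were -0.36 to 0.44 (Inhbb), -0.76 to 0.17 (Inhba), -0.81 to 0.0355 (Inha), -0.44 to 0.33 (Fst), -0.33 to 0.22 (Fstl3), -0.22 to 0.0360 (Acvr1b), -0.0494 to 0.15 (Acvr2a) and -0.14 to 0.41 (Acvr2b). Inhbb and Inhba kept their sign for the diet, Tert and TertCi in all alternatives run. The group means of the log2 ratios moved by less than 1 SD in all alternatives run.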
